A study of Mus musculus with 9 samples.

Results

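Skin of BALB/c nude mice that had been irradiated with ultraviolet B (UVB) and treated with hCOL3A1 was compared with skin that received no UVB. The comparison used 6 of the 9 RNA sequencing libraries of the study, 3 labelled NoUVB and 3 labelled UVB_hCOL3A1, and 16499 of the 57180 genes in the table, those with enough counts to test. BALB/c nude mice are an albino, athymic strain whose hair shafts form poorly. The irradiated backs were exposed on alternate days over 8 weeks, with doses rising from 60 mJ/cm² (1 minimal erythemal dose) to 240 mJ/cm² (4 minimal erythemal doses). The series title ties hCOL3A1 to mRNA that encodes type III collagen, and the sources used here do not give its dose, carrier or route. Collection is given as day 28, with no starting point for that count. NoUVB is labelled with neither UVB nor a treatment, so irradiation, the carrier, the RNA and the collagen differ together between these groups and cannot be told apart. The remaining 3 libraries, UVB_Saline, had the same irradiation with saline and appear only as context. Age and sex are not stated, nor is it stated whether each library is 1 animal, so the p-values speak only of the spread among these samples, some of which may be technical.

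Type III collagen is a fibrillar collagen made by dermal fibroblasts, which co-assembles with type I collagen and is abundant in young and healing skin. Repeated UVB is used in mice as a model of photoageing, in which the dermis loses ordered collagen and builds up abnormal elastic material. RNA made outside the cell can be read by sensors such as RIG-I and MDA5, and the type I interferon that follows acts through transcription factors on response elements in the promoters of antiviral genes. Irradiated skin can also produce interferon without any added RNA.

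Total estimated counts in the 6 libraries ranged from 7640170 to 12927400. The ribosomal RNA gene Rn18s-rs5 took between 42.5% and 45.1% of them in UVB_hCOL3A1, and 55.3%, 7.71% and 37.7% in NoUVB 1, 2 and 3, which left 4274110 to 7402230 counts for all other genes. On the first principal component, which held 37.4% of the variance, NoUVB lay between -30.5 and -18.8, UVB_hCOL3A1 1 and 2 at 18.4 and 18.9, and UVB_hCOL3A1 3 at 40.4. Keratin 14 (Krt14) stood at 671 to 1054 CPM (counts scaled to library size) and collagen Col1a1 at 2333 to 3770 CPM, so epidermis and dermis were both present as the label of skin says, and each value mixes epidermis, dermis, follicles, vessels and nerve. In such tissue, fewer cells of a type and less RNA per cell cannot be told apart.

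Many interferon-induced genes and some myeloid, complement and matrix genes rose in UVB_hCOL3A1 skin, while some genes of the circadian clock, hair shaft, basal keratinocytes, Schwann cells and the mitochondrial genome fell. edgeR's quasi-likelihood test called 283 genes higher (1.72% of those tested) and 124 lower (0.752%) at a Benjamini-Hochberg adjusted p of 0.05. Among the called genes, 149 rose by more than 2-fold and 26 fell by more than 2-fold. The median log2 difference was 1.04 in the first set and -0.69 in the second, against -0.01 over all genes, of which 49.1% were positive. All 407 called genes had groups that did not overlap, and among all genes 10.8% had every UVB_hCOL3A1 value above every NoUVB value and 10.9% had every one below.

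These counts depended on which libraries set the spread. With the 3 UVB_Saline libraries in the same fit, 7 genes were called higher (0.0408% of 17168) and 0 lower (0% of 17168; at an unadjusted p of 0.05 there were 948 lower). The 7 were Ly6c2, Ccl9, H2-T24, Oasl1, Irf7, Trim30d and Lcn2. The common biological coefficient of variation was 0.193 in that fit and 0.152 in the fit of 6. With UVB_Saline 3 alone left out of the larger fit, the counts were 180 and 62. Left out one at a time from the fit of 6, NoUVB 1, 2 and 3 gave 214, 184 and 218 higher and 33, 39 and 61 lower, and UVB_hCOL3A1 1, 2 and 3 gave 202, 255 and 178 higher and 37, 121 and 50 lower. Every one of the 407 genes kept its direction in each of those fits. Scaling by library size alone, with no TMM factor, moved the median of all genes to -0.12 and gave 91 and 38 calls, and the medians of 13 of 54 gene lists, all within 0.171 of 0, changed sign: basement membrane, proteoglycans, protease inhibitors, TGF-beta, stress keratins, p53 targets, NRF2, retinoid, imprinted, fibroblast, adipocyte, lymphatic and smooth muscle genes. Under that scaling the lists left with no call included fibrillar collagens, collagen VI and fibril-associated, elastic fibre, collagen processing, basement membrane and proteoglycan genes. They also included protease, protease inhibitor, class I presentation, core clock, clock output, mast cell, basal keratinocyte and mitochondrial genes. Matricellular genes had 1 call, complement genes 2 and interferon response genes 19.

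**Figure D1:**
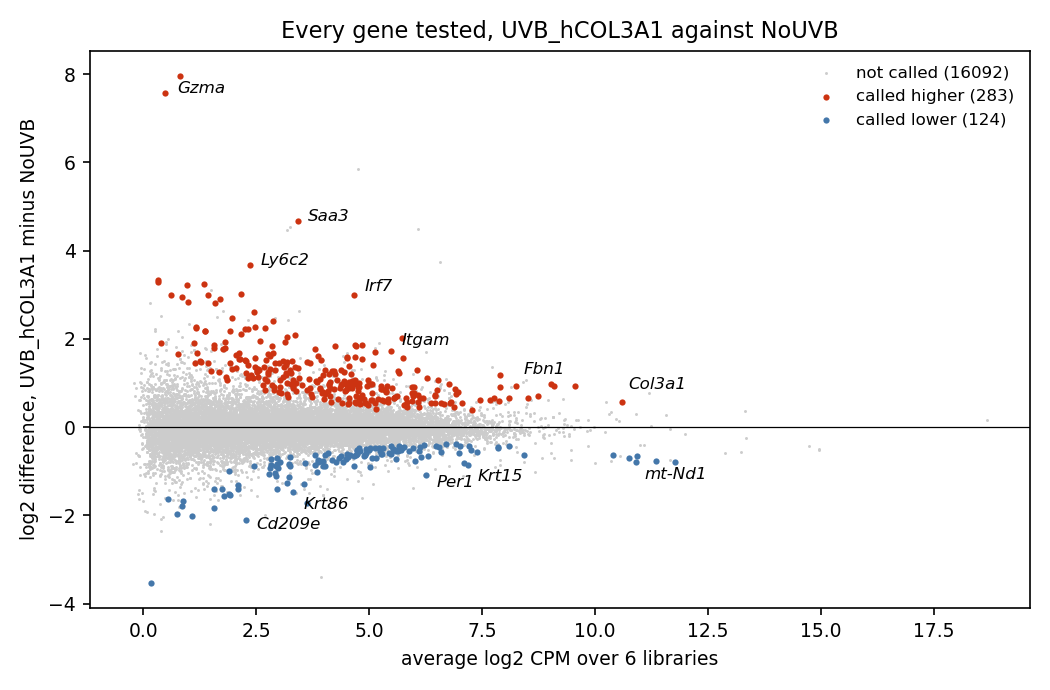
Each point is 1 of the genes tested, with its average log2 CPM over 6 libraries on the horizontal axis and its fitted log2 difference, UVB_hCOL3A1 minus NoUVB, on the vertical axis. The 283 genes called higher (red) and 124 called lower (blue) lie on both sides of a cloud of uncalled genes (grey) centred near 0, and the highest red point with a name is Gzma, which had no counts in NoUVB.

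Type I interferon response genes formed the group with the most calls. Of 45 listed symbols 43 were tested, with Rigi also listed under its older name Ddx58. All 43 were positive (median log2 difference 1.14), and 30 passed as higher and 0 as lower. Leaving out single libraries gave 25 to 29 calls in this group, and the fit of all 9 libraries gave 2. The called members span the pathway: the RNA sensors Rigi and Ifih1, which encode RIG-I and MDA5, the transcription factor Irf7, the 2'-5' oligoadenylate synthetases Oas1a, Oas1g, Oas2 and Oas3, the Ifit proteins that bind viral RNA, the antiviral GTPase Mx1 and the ubiquitin-like Isg15. Stat2 and Irf9, factors that transmit the signal and were looked up after the list had been seen, did not pass, with log2 differences of 0.38 (adjusted p = 0.590) and 0.42 (adjusted p = 0.337).

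The interferon-stimulated response element was looked for in promoters because it is the sequence through which these genes are known to respond. The letters GAAA, then any 2 bases (NN), then GAAA again were searched on both strands of the 300 bases from 250 before to 50 after each RefSeq start (build GRCm38.p6, which differs from the authors' GRCm39). They occurred in 3.99% of 27025 genes with an entry, in 3.83% of 11294 tested genes with one, and in 37 of 207 genes called higher and 6 of 78 called lower. Among all listed interferon genes with an entry it was 16 of 31 (51.6%), and among the called ones 13 of 23 (56.5%). The share was thus similar in the whole list and in its called members. These 13 are also counted within the 37. The promoter entry of the called gene Rigi carries its older name Ddx58. Its match is therefore counted among the 16 but not among the 13 or the 37. A match describes the letters only. The stretches below belong to the 5 called interferon genes with the smallest p whose 60 bases around the match lie wholly before the start, printed 5′ to 3′ on the strand of the gene with the match in capitals (or, where it lies on the other strand, its reverse complement, which starts with TTTC). Capitals mark only the match nearest to the start among those before it. Ifit1, Ifit3 and Bst2 hold 2 matches each in the 300 bases. In Ifit1 and Bst2 the other match lies wholly or partly in the small letters printed.
Oas3, chr5:120777700-120777759, minus strand: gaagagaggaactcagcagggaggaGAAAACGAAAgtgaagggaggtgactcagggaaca
Ifit1, chr19:34640779-34640838, plus strand: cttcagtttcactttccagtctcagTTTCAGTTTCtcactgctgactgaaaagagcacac
Trim30a, chr7:104465195-104465254, minus strand: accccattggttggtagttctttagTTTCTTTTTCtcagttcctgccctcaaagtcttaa
Ifit3, chr19:34583382-34583441, plus strand: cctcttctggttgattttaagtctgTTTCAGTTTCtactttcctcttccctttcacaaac
Bst2, chr8:71537562-71537621, minus strand: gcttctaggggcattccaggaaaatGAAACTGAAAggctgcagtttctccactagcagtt

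Irf7, the factor that amplifies interferon production, stood at 6.07, 5.87 and 4.79 CPM in NoUVB and 40.4, 58.5 and 33.4 in UVB_hCOL3A1, a log2 difference of 2.99 ± 0.23 SE, adjusted p = 0.000801. The highest unirradiated value was thus far below the lowest treated one. Oas3, whose promoter stretch heads the list above, went from 2.54, 1.6 and 2.59 to 10.4, 11.7 and 13.5 CPM (log2 2.41 ± 0.22 SE, adjusted p = 0.000681). Ifit1 went from 1.7, 1.87 and 1.82 to 6.67, 9.99 and 9.78 CPM (log2 2.27 ± 0.24 SE, adjusted p = 0.00108). In both genes the 3 treated libraries lay close together. Oasl1, an inhibitor of Irf7 translation, went from 0.706, 0.801 and 0.575 to 5.46, 5.6 and 4.62 CPM (log2 2.89 ± 0.28 SE, adjusted p = 0.000801). Mx1 went from 1.13, 1.6 and 1.92 to 6.6, 7.75 and 6.23 CPM (log2 2.11 ± 0.24 SE, adjusted p = 0.00192), although it is carried by BALB/c mice in a form known to be defective. Rtp4, an interferon-induced transporter protein, went from 4.52, 4.98 and 5.17 to 13.6, 13.4 and 15.1 CPM (log2 1.51 ± 0.15 SE, adjusted p = 0.000839).

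The steepest interferon genes were expressed at low levels in NoUVB. Ifi44, an interferon-induced gene of the cytoplasm, stood at 0.706, 1.33 and 0.575 CPM in NoUVB and 10.6, 4.86 and 6.45 in UVB_hCOL3A1 (log2 3.02 ± 0.40 SE, adjusted p = 0.00571). Oas1g went from 0.989, 0.445 and 0.67 to 5.08, 3.92 and 5.37 CPM (log2 2.82 ± 0.33 SE, adjusted p = 0.00205), and Trim30d, of the TRIM30 family, from 0.565, 0.356 and 0.383 to 3.87, 4.39 and 4.08 CPM (log2 3.25 ± 0.33 SE, adjusted p = 0.000839). Oas1g, Ifit3 and Trim30d have near-identical neighbours (Oas1a, Ifit3b and Trim30a) with which estimated counts can share reads, so their individual values are uncertain. Ms4a4c, a membrane protein gene of monocytes, went from 1.84, 1.07 and 1.53 to 9.48, 9.99 and 6.77 CPM (log2 2.60 ± 0.26 SE, adjusted p = 0.000839).

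Interferon-inducible GTPase and class I presentation genes gave fewer calls than the type I interferon response list. Of 34 such genes, 33 were positive with a median of 0.52, and 2 passed as higher and 0 as lower. At an unadjusted p of 0.05 in edgeR 11 were higher and 0 lower. H2-K1, a class I heavy chain, stood at 145, 163 and 192 CPM in NoUVB and 271, 315 and 349 in UVB_hCOL3A1 (log2 0.90 ± 0.13 SE, adjusted p = 0.0056). B2m, the light chain of class I molecules, stood at 477, 518 and 567 and 799, 1270.3 and 921 CPM (log2 0.94 ± 0.16 SE, adjusted p = 0.0196). In both genes every treated value was higher than every unirradiated one. The list mean was 0.22, 0.22 and 1.01 in UVB_hCOL3A1 1, 2 and 3 against 0.40, -0.50 and 0.10 in NoUVB 1, 2 and 3, and the median was 0.20 without UVB_hCOL3A1 3 and 0.30 without NoUVB 2. Without NoUVB 1 or NoUVB 2 there was 1 call in the list, and without NoUVB 3 there were 3. No class II presentation gene passed among 13 (edgeR; 12 positive, median 0.15, 1 higher at an unadjusted p of 0.05). Without UVB_hCOL3A1 3 the class II median was -0.21. Over all 16499 genes tested 1385 were higher and 1215 lower at that unadjusted p, the background for such counts in every list.

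The interferon list was also positive in saline-treated irradiated skin, unevenly among its libraries. In the fit of 9 libraries its median log2 difference from NoUVB was 1.22 in UVB_Saline (42 of 43 positive) and 1.14 in UVB_hCOL3A1. Scaled over 9 libraries, its mean log2 CPM relative to NoUVB was 1.24, 1.27 and 1.37 in UVB_hCOL3A1 1, 2 and 3, and 0.19, 0.95 and 2.05 in UVB_Saline 1, 2 and 3. The treated libraries were close to each other, and the saline libraries spread on both sides of them. On that scaling Irf7 stood at 9.85, 16.2 and 23.3 CPM in UVB_Saline 1, 2 and 3, below each treated library. Mx1 stood at 2.77, 8.39 and 18.4 CPM there, so its groups overlapped.

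**Figure D2:**
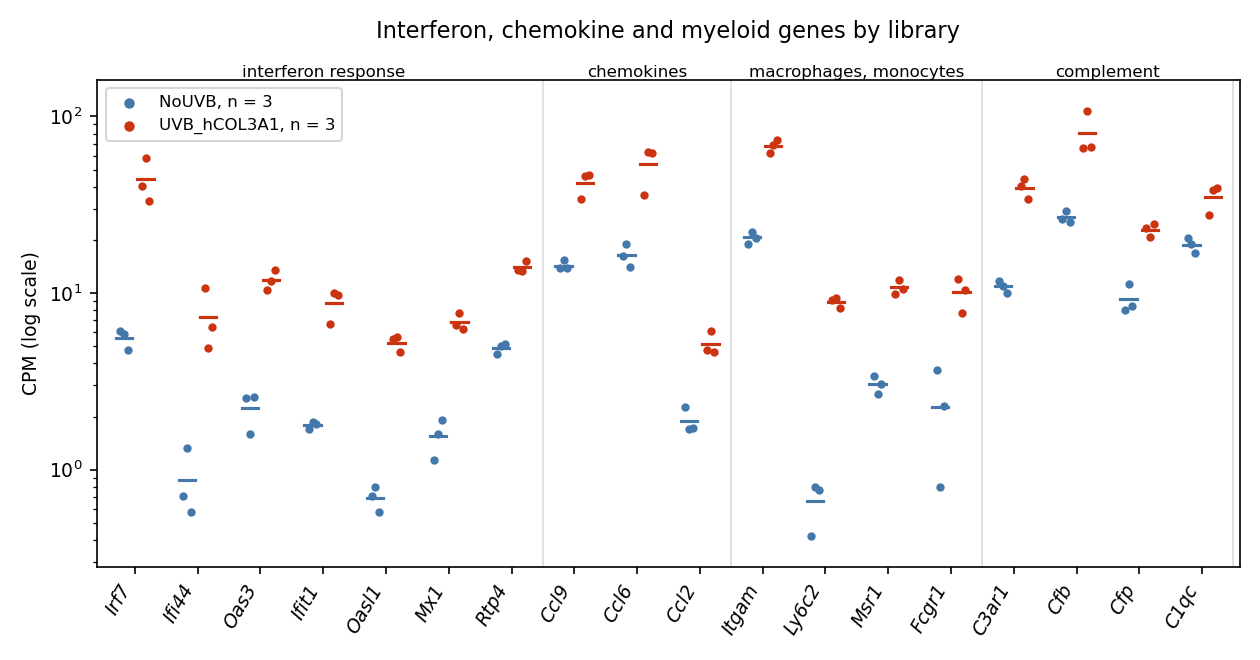
CPM on a log scale for each of the 3 NoUVB (blue) and 3 UVB_hCOL3A1 (red) libraries, with a bar at each group mean, for 18 genes grouped by role. In each of these genes the red points lie above the blue ones, with the widest gaps for Ly6c2, Oasl1 and Irf7.

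Part of the macrophage and monocyte markers rose, as did CC chemokines that draw such cells. Of 26 tested markers 20 were positive (median 0.74), 10 passed as higher and 1 as lower. Itgam, the integrin chain CD11b of myeloid cells, stood at 19.1, 22.2 and 20.6 CPM in NoUVB and 62.4, 68.6 and 73.2 in UVB_hCOL3A1 (log2 1.72 ± 0.11 SE, adjusted p = 0.000133). Ly6c2, a surface antigen of inflammatory monocytes, went from 0.424, 0.801 and 0.766 to 9.1, 9.43 and 8.27 CPM (log2 3.67 ± 0.25 SE, adjusted p = 0.00014). This was a 12.7-fold difference, with nearly equal values in the 3 treated libraries. Msr1, a scavenger receptor, went from 3.39, 2.67 and 3.06 to 9.94, 11.9 and 10.5 CPM (log2 1.83 ± 0.18 SE, adjusted p = 0.000839). Fcgr1, the high-affinity receptor for IgG, went from 3.67, 0.801 and 2.3 to 12.1, 7.75 and 10.4 CPM (log2 2.25 ± 0.41 SE, adjusted p = 0.0372). The other called markers were Ccr2, Adgre1, C1qb, C1qc, Mrc1 and Csf1r. Single libraries left out gave 7 to 9 calls, and the fit of 9 libraries gave 1. Ly6c2 has close relatives in the Ly6 family, so its counts may be shared with them.

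One myeloid marker, a lectin, passed as lower. Cd209e, of the DC-SIGN family, stood at 5.65, 8.63 and 8.43 CPM in NoUVB and 1.29, 1.96 and 2.15 in UVB_hCOL3A1 (log2 -2.11 ± 0.26 SE, adjusted p = 0.00297). Its lowest unirradiated value lay well above the highest treated one. In UVB_Saline it stood at 1.23, 2.55 and 2.6 CPM. Ccr4, a chemokine receptor of skin-homing lymphocytes, was also lower, at 4.66, 3.56 and 5.17 and 0.986, 1.12 and 1.72 CPM (log2 -1.82 ± 0.30 SE, adjusted p = 0.0109).

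Among 27 cytokine and chemokine genes tested, 21 were positive (median 0.26), 3 passed as higher and 0 as lower, and all 3 were CC chemokines. Ccl9, a myeloid chemokine, stood at 13.8, 15.3 and 13.8 CPM in NoUVB and 34.2, 45.8 and 46.4 in UVB_hCOL3A1 (log2 1.55 ± 0.14 SE, adjusted p = 0.000681). Ccl6 went from 16.2, 19 and 14.1 to 36, 63.1 and 61.9 CPM (log2 1.70 ± 0.24 SE, adjusted p = 0.014). Ccl2, the ligand of Ccr2 on monocytes, went from 2.26, 1.69 and 1.72 to 4.78, 6.07 and 4.62 CPM (log2 1.46 ± 0.25 SE, adjusted p = 0.0114). All treated values of these genes exceeded the unirradiated ones. Il1b, a cytokine of acute inflammation, overlapped between the groups at 3.39, 1.6 and 4.98 and 2.43, 2.34 and 8.81 CPM (log2 0.41 ± 0.68 SE, adjusted p = 0.839). Il6, another such cytokine, fell under the count filter, with 0 to 4 counts in each library. Leaving out NoUVB 3 or UVB_hCOL3A1 3 left 2 of these 3 calls.

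Some complement genes rose. Of 21 tested 19 were positive (median 0.55), 6 passed as higher and 0 as lower, 2 of them (C1qb and C1qc) also counted among the macrophage markers, and the others were C3ar1, Cfb, Cfp and Masp1. C3ar1, the receptor for C3a, stood at 11.7, 11 and 9.96 CPM in NoUVB and 40.2, 44.2 and 34.3 in UVB_hCOL3A1 (log2 1.86 ± 0.13 SE, adjusted p = 0.00014). Cfb, factor B of the alternative pathway, went from 26.4, 29.2 and 25.3 to 66.5, 107 and 67.1 CPM (log2 1.57 ± 0.19 SE, adjusted p = 0.00664). Cfp, which encodes properdin, a stabiliser of that pathway, went from 8.05, 11.3 and 8.43 to 23.2, 20.7 and 24.5 CPM (log2 1.29 ± 0.16 SE, adjusted p = 0.00237). Without NoUVB 1 the list had 4 calls, and without NoUVB 3 or UVB_hCOL3A1 1 it had 7. C1qc, a chain of C1q that macrophages make, went from 20.6, 18.9 and 16.9 to 27.7, 38.2 and 39.3 CPM (log2 0.90 ± 0.15 SE, adjusted p = 0.011).

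Acute phase genes and other myeloid products included the largest fold among genes above the level filter for named genes (average log2 CPM of 1). Saa3, a serum amyloid A protein made locally in inflamed tissue, stood at 0.848, 0.89 and 0.575 CPM in NoUVB and 27.2, 22.5 and 9.02 in UVB_hCOL3A1 (log2 4.67 ± 0.56 SE, adjusted p = 0.0119), a 25.4-fold difference. The treated values were uneven, with UVB_hCOL3A1 3 the lowest. Lcn2, an iron-binding antibacterial protein, went from 4.1, 2.94 and 4.31 to 16.5, 20.6 and 10.9 CPM (log2 2.09 ± 0.26 SE, adjusted p = 0.00406). In UVB_Saline the values were 0.308, 0.247 and 4.66 CPM for Saa3 and 5.95, 5.84 and 3.69 CPM for Lcn2, below each treated library in both genes. These 2 were the calls among 13 acute phase and alarmin genes, of which 9 were positive (median 0.18), and 1 call was left without any 1 of the NoUVB libraries. Acod1, which makes itaconate in activated macrophages, went from 0.848, 0.356 and 0.192 to 1.59, 2.62 and 5.37 CPM (log2 2.84 ± 0.62 SE, adjusted p = 0.0497), and Cd300lf, a myeloid inhibitory receptor, from 1.84, 0.979 and 0.67 to 5.76, 4.3 and 8.49 CPM (log2 2.47 ± 0.38 SE, adjusted p = 0.00776).

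NK cell and T cell genes were both mostly positive, and calls fell only among the NK cell genes. Of 9 tested NK cell genes 8 were positive (median 0.81) and 3 passed as higher. Gzma, a granzyme of cytotoxic cells, had 0 counts in NoUVB and 76 in UVB_hCOL3A1, where it reached 2.43, 2.06 and 2.36 CPM, so it was at least 21.9-fold higher when the NoUVB group is set to a floor of 3 counts (adjusted p = 0.00284). Gzmb, another granzyme, had 5 counts over NoUVB and 62 over UVB_hCOL3A1 (0.283, 0.089 and 0.192 and 1.9, 1.96 and 1.72 CPM; log2 3.32 ± 0.49 SE, adjusted p = 0.00605). Both granzymes rest on few counts per library and passed the count filter only through their UVB_hCOL3A1 values, so their calls add little support. Klrk1, the activating receptor NKG2D, went from 2.97, 2.31 and 3.73 to 6.14, 5.88 and 7.41 CPM (log2 1.1 ± 0.23 SE, adjusted p = 0.0319). Leaving out NoUVB 1 or 2 or UVB_hCOL3A1 1 or 3 left 2 calls. None of 16 T cell genes passed in edgeR (14 positive, median 0.30, 1 higher at an unadjusted p of 0.05).

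Immunoglobulin genes were uneven among treated libraries. Ighm, the IgM heavy chain, stood at 13.7, 14.7 and 11.2 CPM in NoUVB and 349, 29.5 and 149.8 in UVB_hCOL3A1 (log2 3.74 ± 1.05 SE, adjusted p = 0.217), and Igkc, the kappa light chain, at 4.38, 3.11 and 9.38 and 230.4, 12.1 and 143 CPM (log2 4.50 ± 1.34 SE, adjusted p = 0.236). UVB_hCOL3A1 2 was much lower than the other treated libraries in both. Of 6 B and plasma cell genes tested 0 passed as higher and 1 as lower, Sdc1, the syndecan of plasma cells and keratinocytes (log2 -0.37 ± 0.08 SE, adjusted p = 0.0468). Without UVB_hCOL3A1 2 there were 5 higher and 0 lower, and without any other single library 0 of either.

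Mast cell genes gave 2 calls among 12 tested (9 positive, median 0.34). Cma1, a chymase of connective tissue mast cells, stood at 9.04, 14.1 and 11.3 CPM in NoUVB and 19.9, 22.8 and 25.7 in UVB_hCOL3A1 (log2 0.97 ± 0.17 SE, adjusted p = 0.014). Il1rl1, the receptor for IL-33, stood at 3.39, 3.65 and 4.4 and 7.96, 8.13 and 13 CPM (log2 1.32 ± 0.24 SE, adjusted p = 0.0157). Both rose in all 3 treated libraries, and leaving out any NoUVB library left 1 call. Of 6 neutrophil genes tested only Csf3r passed, the receptor for G-CSF, at 4.94, 5.34 and 5.46 and 12.1, 8.22 and 15.7 CPM (log2 1.18 ± 0.23 SE, adjusted p = 0.0238), and its call was lost without any single library other than UVB_hCOL3A1 2 and with limma voom.

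Matrix genes rose in part, with calls for fibrillins, elastin and collagens III and V and none for type I collagen. Of 10 fibrillar collagens tested 8 were positive (median 0.19), 3 passed as higher and 0 as lower. Mouse Col3a1 stood at 1166, 1197 and 1412 CPM in NoUVB and 1804, 1992 and 1819 in UVB_hCOL3A1, a 1.49-fold difference (log2 0.57 ± 0.11 SE, adjusted p = 0.0281). The lowest treated value was above the highest unirradiated one. The treatment carries the human symbol of this gene, and any counting of delivered RNA under the mouse gene was not tested. Col5a2 went from 151, 165 and 189.7 to 239, 264 and 302 CPM (log2 0.67 ± 0.12 SE, adjusted p = 0.0145) and Col5a1 from 177, 177 and 213 to 245, 307 and 301 CPM (log2 0.59 ± 0.12 SE, adjusted p = 0.0275), both chains of type V collagen, which nucleates fibrils. Col1a1 overlapped between the groups at 2784, 2333 and 3154 and 3032, 3769.5 and 3205 CPM (log2 0.27 ± 0.14 SE, adjusted p = 0.391), as did Col1a2 at 1393, 1258 and 1537 and 1438, 1728 and 1485 CPM (log2 0.15 ± 0.12 SE, adjusted p = 0.606). Neither chain of type I collagen passed. Without NoUVB 1 or NoUVB 2 there were 0 calls among fibrillar collagens, without UVB_hCOL3A1 3 there was 1, without UVB_hCOL3A1 1 or 2 there were 2, and in the fit of 9 libraries 0.

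Elastic fibre genes gave 4 calls higher and 0 lower among 20 tested (15 positive, median 0.44). Fbn1, the fibrillin that scaffolds elastic fibres, stood at 213, 214 and 202 CPM in NoUVB and 349, 425 and 419 in UVB_hCOL3A1 (log2 0.92 ± 0.10 SE, adjusted p = 0.00166). Eln, the elastin gene, went from 36, 49 and 46.4 to 72.6, 91.4 and 83.2 CPM (log2 0.90 ± 0.13 SE, adjusted p = 0.00605). Fbn2, a fibrillin abundant in development, went from 11.4, 6.05 and 11.3 to 21.8, 22.6 and 20.3 CPM (log2 1.19 ± 0.21 SE, adjusted p = 0.0218). All 3 genes were higher without overlap, by 1.90-fold, 1.87-fold and 2.28-fold. Emilin2, an elastin-associated glycoprotein, was the other call (log2 0.93 ± 0.19 SE, adjusted p = 0.0438). In UVB_Saline, Eln stood at 65.3, 102 and 59 CPM and Fbn1 at 219, 246 and 349.7 CPM, and Eln overlapped between the irradiated groups. The calls in this list numbered 2 without UVB_hCOL3A1 2 or UVB_hCOL3A1 3.

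A few proteins that mature collagen rose. Among 34 processing and crosslinking genes 29 were positive (median 0.30), 3 passed as higher and 0 as lower. Loxl2, a lysyl oxidase that crosslinks collagen, stood at 49.3, 52.1 and 46.2 CPM in NoUVB and 73.2, 78 and 71.3 in UVB_hCOL3A1 (log2 0.59 ± 0.09 SE, adjusted p = 0.00895). Lox, the founding member of that family, went from 32.8, 34 and 36.1 to 45.7, 50.5 and 56.4 CPM (log2 0.57 ± 0.11 SE, adjusted p = 0.0216). Serpinh1, the collagen chaperone HSP47, went from 68.2, 79.2 and 86.9 to 105, 133 and 105 CPM (log2 0.55 ± 0.12 SE, adjusted p = 0.0459). Each was higher without overlap, with folds of 1.51, 1.48 and 1.46. Leaving out NoUVB 1 or UVB_hCOL3A1 3 left 1 call. Among 15 collagen VI and fibril-associated genes 12 were positive (median 0.61) and 2 passed, Col12a1, which decorates fibrils, at 130.3, 136 and 173 and 274, 306 and 413 CPM (log2 1.18 ± 0.17 SE, adjusted p = 0.0115), and Col8a1, a short-chain collagen, at 3.96, 4.98 and 4.31 and 8.19, 7.94 and 7.73 CPM (log2 0.84 ± 0.17 SE, adjusted p = 0.0319). Without NoUVB 1, NoUVB 3, UVB_hCOL3A1 2 or UVB_hCOL3A1 3 the count was 1.

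Matricellular and adhesive matrix proteins gave 6 calls higher and 0 lower among 26 (19 positive, median 0.30). Postn, periostin, stood at 337, 366 and 429 CPM in NoUVB and 673, 689 and 795 in UVB_hCOL3A1 (log2 0.93 ± 0.12 SE, adjusted p = 0.0031). Thbs2, a thrombospondin, went from 128, 142 and 147 to 208, 211 and 218 CPM (log2 0.61 ± 0.09 SE, adjusted p = 0.00643). Coch, cochlin, went from 16.7, 18.2 and 19.4 to 24.2, 27.8 and 34.3 CPM (log2 0.66 ± 0.14 SE, adjusted p = 0.0392), while in UVB_Saline it stood at 12.7, 7.97 and 5.64 CPM, below the unirradiated libraries. The remaining calls were Thbs3, Ccn4 and Fn1. Left out singly, NoUVB 1, UVB_hCOL3A1 2 or UVB_hCOL3A1 3 gave 2 calls and NoUVB 3 gave 3. Among 22 proteoglycan genes 13 were positive (median 0.07) and 2 passed as higher: Vcan, the large proteoglycan versican, at 85, 90.9 and 95.2 and 161, 172 and 128 CPM (log2 0.76 ± 0.12 SE, adjusted p = 0.00761), and Aspn, asporin, at 23.3, 31.9 and 39.2 and 63, 64.1 and 49.2 CPM (log2 0.89 ± 0.19 SE, adjusted p = 0.0487). Without NoUVB 1, NoUVB 2, UVB_hCOL3A1 1 or UVB_hCOL3A1 2 this list had 1 call.

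Few matrix-degrading enzymes passed. Of 28 protease genes 24 were positive (median 0.35) and 2 passed as higher, the aggrecanase Adamts4 (log2 1.31 ± 0.25 SE, adjusted p = 0.0213) and the lysosomal cathepsin Ctsb (log2 0.67 ± 0.13 SE, adjusted p = 0.0216). Of these 2 calls 0 were left without NoUVB 1, and 1 without NoUVB 2, NoUVB 3, UVB_hCOL3A1 1 or UVB_hCOL3A1 3. At an unadjusted p of 0.05 in edgeR 11 of the 28 protease genes were higher and 1 lower. Mmp2, a gelatinase of fibroblasts, overlapped at 98.3, 118 and 95.6 and 111, 134 and 135 CPM (log2 0.29 ± 0.12 SE, adjusted p = 0.256). Mmp3, stromelysin, stood at 12.7, 14.3 and 13.9 and 13.8, 16.3 and 13.3 CPM (log2 0.08 ± 0.14 SE, adjusted p = 0.831). Mmp9, a gelatinase of leukocytes and keratinocytes, stood at 10.7, 11.7 and 10.8 and 9.63, 11.2 and 15.4 CPM (log2 0.11 ± 0.18 SE, adjusted p = 0.835). Mmp13, a collagenase, stood at 1.7, 1.25 and 2.97 and 1.74, 1.68 and 3.55 CPM (log2 0.20 ± 0.41 SE, adjusted p = 0.87). None of these 4 genes passed, and all 4 overlapped between the groups. Timp1, their inhibitor, did not overlap but missed the threshold, at 3.11, 2.67 and 2.68 and 4.1, 7.01 and 5.05 CPM (log2 0.93 ± 0.25 SE, adjusted p = 0.0901). Reck, a membrane inhibitor of MMPs, was the call among 18 inhibitor genes and was lower, at 26.4, 23 and 18.4 and 11.7, 15.9 and 12.6 CPM (log2 -0.75 ± 0.17 SE, adjusted p = 0.0435), a call lost without NoUVB 1, NoUVB 2, UVB_hCOL3A1 1 or UVB_hCOL3A1 3, with limma voom and with the non-robust dispersion. No TGF-beta gene passed among 24 in edgeR (13 positive, median 0.02, 4 higher and 3 lower at an unadjusted p of 0.05), with Tgfb1 at 25.1, 29.5 and 24.4 and 32.5, 37.4 and 44.7 CPM (log2 0.53 ± 0.13 SE, adjusted p = 0.0709).

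**Figure D3:**
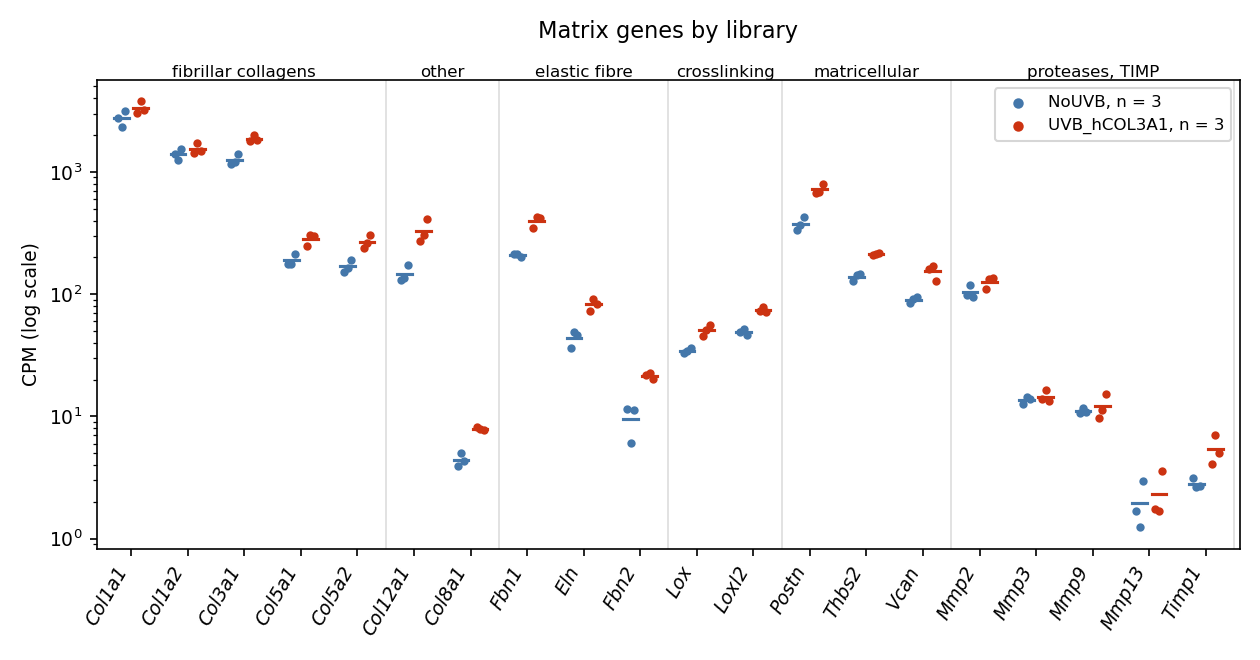
CPM on a log scale for each of the 3 NoUVB (blue) and 3 UVB_hCOL3A1 (red) libraries, with a bar at each group mean, for 20 matrix genes. Red lies above blue without overlap for Col3a1, Col5a1, Col5a2, Col12a1, Col8a1, Fbn1, Eln, Fbn2, Lox, Loxl2, Postn, Thbs2, Vcan and Timp1 (which did not pass), and the groups overlap for Col1a1, Col1a2, Mmp2, Mmp3, Mmp9 and Mmp13.

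Markers of the cells that make this matrix did not pass. Of 21 fibroblast genes 16 were positive (median 0.17) and 0 passed in edgeR, with 5 higher at an unadjusted p of 0.05 and 2 called higher by DESeq2. Genes of the unfolded protein response, which serves secretory load, were positive in 23 of 25 (median 0.29) with 0 calls, 13 higher at an unadjusted p of 0.05 and 1 DESeq2 call, and the ER chaperone Hspa5 stood at 125, 123 and 143 and 174, 163 and 169 CPM (log2 0.37 ± 0.09 SE, adjusted p = 0.0671). Skeletal muscle genes, from the muscle layer under the skin, were positive in 23 of 24 (median 0.90) with 0 calls in edgeR, 3 in DESeq2 and 1 in limma voom. Their list mean was 1.01 in NoUVB 1, -0.47 and -0.54 in NoUVB 2 and 3, and 0.65 to 1.12 in UVB_hCOL3A1, and without NoUVB 1 there were 17 calls higher. Desmin (Des), a muscle filament gene listed with smooth muscle, rose from 63.4, 44.3 and 39.7 to 86.8, 101 and 130.3 CPM (log2 1.11 ± 0.21 SE, adjusted p = 0.0444) with the same pattern in NoUVB 1. Its call was lost without NoUVB 2 or 3 or UVB_hCOL3A1 2 or 3. Ankrd2, a muscle stretch-response gene, rose from 1.27, 0.534 and 0.383 to 2.81, 2.34 and 4.94 CPM (log2 2.28 ± 0.47 SE, adjusted p = 0.0311). The part of muscle content in these values was not tested.

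Several genes of the circadian clock and of the glucocorticoid response fell. Of 20 core clock genes 6 were positive (median -0.23), and 2 passed as lower. Per1, a repressor of the clock that also responds to glucocorticoids, stood at 104, 96.4 and 112 CPM in NoUVB and 38.8, 51 and 58.1 in UVB_hCOL3A1 (log2 -1.08 ± 0.14 SE, adjusted p = 0.00406), a 2.11-fold drop. Per3 went from 49.7, 44.7 and 47.2 to 35.3, 28 and 30.0 CPM (log2 -0.60 ± 0.11 SE, adjusted p = 0.0207). Per2 did not overlap either, at 30.8, 32.4 and 35.3 and 17.3, 26.1 and 21.2 CPM, and missed the threshold (log2 -0.62 ± 0.15 SE, adjusted p = 0.0554). In UVB_Saline Per1 stood at 65, 46.9 and 46.5 CPM and Per2 at 12.5, 12.9 and 15 CPM. Without NoUVB 1, NoUVB 3 or UVB_hCOL3A1 3 there was 1 call in this list. The sources used here do not give the hour of collection, and its part in these values was not tested.

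Clock output factors gave 3 calls lower among 15 (6 positive, median -0.22). These were Hlf and Tef, PAR-domain factors driven by the clock, and Klf9, a zinc finger factor. Hlf stood at 35.5, 32.8 and 27.2 CPM in NoUVB and 23.3, 19 and 19 in UVB_hCOL3A1 (log2 -0.63 ± 0.13 SE, adjusted p = 0.0361), Tef at 81.8, 83.5 and 86.8 and 59.6, 68.1 and 62.7 CPM (log2 -0.40 ± 0.09 SE, adjusted p = 0.0481) and Klf9 at 49.7, 53.2 and 50.3 and 37.5, 40.4 and 36 CPM (log2 -0.43 ± 0.10 SE, adjusted p = 0.0438). Left out singly, NoUVB 1, NoUVB 2 or UVB_hCOL3A1 3 gave 0 of the 3 calls and NoUVB 3 or UVB_hCOL3A1 1 gave 1, while limma voom called 0 and the non-robust dispersion 1. Dbp, another PAR-domain factor, missed the threshold at 50.2, 46.7 and 39 and 35.8, 39.4 and 36.2 CPM (log2 -0.28 ± 0.11 SE, adjusted p = 0.252). The E-box CACGTG, through which CLOCK and BMAL1 act, was searched in the same promoter windows (the letters read the same on both strands). It occurred in 8.09% of all genes with an entry, in 11.2% of the 11294 tested genes with one, in 9 of 78 called lower and 12 of 207 called higher, and Per1 and Tef are the called genes of both clock lists with a match, printed with it in capitals.
Per1, chr11:69098758-69098813, plus strand: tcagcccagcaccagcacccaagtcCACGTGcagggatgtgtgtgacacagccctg
Tef, chr15:81802521-81802576, plus strand: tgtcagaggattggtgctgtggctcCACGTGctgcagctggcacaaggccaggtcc

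Of 26 glucocorticoid-responsive genes 6 were positive (median -0.43), 4 passed as lower and 1, Lcn2, as higher. The 4 were Per1 and Klf9, already described, with Map3k6 and Cebpd. Map3k6, a stress kinase gene, stood at 43.2, 43.8 and 36.5 CPM in NoUVB and 26.8, 26.5 and 23.2 in UVB_hCOL3A1 (log2 -0.69 ± 0.11 SE, adjusted p = 0.0104), and Cebpd, a transcription factor induced by steroids and by inflammation, at 19.4, 18.5 and 19.7 and 6.75, 11.2 and 10.9 CPM (log2 -1.01 ± 0.18 SE, adjusted p = 0.0177). Neither gene overlapped between the groups. Zbtb16, a strongly steroid-induced factor, stood at 51.8, 44.7 and 61.4 and 24.8, 31.8 and 37.6 CPM, just outside the threshold (log2 -0.75 ± 0.17 SE, adjusted p = 0.0542). In UVB_Saline it stood at 16.4, 17.6 and 14.9 CPM, below every treated library. Fkbp5, another steroid-induced gene, overlapped at 41.1, 29.4 and 50.8 and 28.8, 39.7 and 32.8 CPM (log2 -0.26 ± 0.21 SE, adjusted p = 0.616). Without NoUVB 1 there were 2 calls lower. Immediate early genes, which also follow tissue handling, were positive in 1 of 25 (median -0.32), with Egr1 (log2 -0.80 ± 0.15 SE, adjusted p = 0.0227) and Ier2 (log2 -0.61 ± 0.11 SE, adjusted p = 0.0142) passing as lower. Both were lost without NoUVB 3, and 1 was left without NoUVB 1 or UVB_hCOL3A1 2 or 3.

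Hair shaft genes had the lowest median of the process lists. Of 42 tested 0 were positive (median -0.98) and 4 passed as lower. Krt86, a hard keratin of the hair cortex, stood at 16.7, 14.2 and 12.7 CPM in NoUVB and 4.93, 7.75 and 2.79 in UVB_hCOL3A1 (log2 -1.48 ± 0.30 SE, adjusted p = 0.0472). Krt33b, a type I hair keratin, went from 6.36, 5.52 and 4.6 to 1.67, 2.8 and 1.07 CPM (log2 -1.54 ± 0.31 SE, adjusted p = 0.0294). The keratin-associated proteins Krtap7-1 (17.9, 22.2 and 16 to 3.49, 9.06 and 4.62 CPM; log2 -1.72 ± 0.33 SE, adjusted p = 0.0454) and Krtap8-1 (3.81, 7.3 and 4.6 to 1.52, 2.52 and 1.5 CPM; log2 -1.52 ± 0.32 SE, adjusted p = 0.0334) crosslink those filaments. All 4 were lower by 2.78-fold to 3.30-fold, with UVB_hCOL3A1 2 nearest to the unirradiated libraries. Leaving that library out gave 7 calls, NoUVB 1 or 3 left 1, UVB_hCOL3A1 3 left 2, and NoUVB 2 or UVB_hCOL3A1 1 left 0. The list mean was 0.09, -0.72 and -2.30 in UVB_Saline. Hair growth phase differs between patches of mouse skin, and its part was not tested.

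Genes of basal keratinocytes and the epidermal surface were lower in part. Krt15, a keratin of basal cells and follicle stem cells, stood at 216, 179 and 166 CPM in NoUVB and 104, 121 and 85 in UVB_hCOL3A1 (log2 -0.85 ± 0.14 SE, adjusted p = 0.0153). Trp63, the master factor p63 of stratified epithelium, went from 272, 267 and 264 to 195, 205 and 182 CPM (log2 -0.47 ± 0.09 SE, adjusted p = 0.0218). Col17a1, a hemidesmosomal collagen that anchors basal cells, went from 281, 249.6 and 264 to 198, 178 and 211 CPM (log2 -0.44 ± 0.10 SE, adjusted p = 0.0451). These 3 were the calls lower among 16 basal and follicle stem cell genes (7 positive, median -0.13), in which Postn also counted, as higher. Leaving out NoUVB 1 or UVB_hCOL3A1 1 ended all 3, and NoUVB 2, NoUVB 3 or UVB_hCOL3A1 3 left 1. Krt14, the main basal keratin, overlapped at 724, 671 and 769.8 and 695, 672 and 1054 CPM (log2 0.16 ± 0.17 SE, adjusted p = 0.713), and Mki67, a marker of dividing cells, at 344, 301 and 309 and 329.8, 333 and 255 CPM (log2 -0.05 ± 0.12 SE, adjusted p = 0.881).

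Desmosome genes were negative in 20 of 21 (median -0.27) with 1 call, Ppl, the cornified envelope linker periplakin, at 455, 400.5 and 396 and 259.6, 291 and 253 CPM (log2 -0.64 ± 0.10 SE, adjusted p = 0.00852). It was lost without UVB_hCOL3A1 1. Among 43 differentiation genes 8 were positive (median -0.46) and 2 passed as lower, Tgm3, a transglutaminase of the envelope and hair (log2 -0.55 ± 0.12 SE, adjusted p = 0.0409), and Dsg1a, a desmosomal cadherin of upper layers (log2 -0.42 ± 0.10 SE, adjusted p = 0.0486). The list mean was -0.69, 0.03 and -0.68 in UVB_hCOL3A1 1, 2 and 3, so UVB_hCOL3A1 2 was not lower, and without it there were 12 calls. Without NoUVB 1, NoUVB 2 or UVB_hCOL3A1 1 there were 0, as with the non-robust dispersion. Krt10, the keratin of suprabasal layers, overlapped at 1031, 1194 and 1731 and 1331, 1243 and 1909.8 CPM (log2 0.18 ± 0.23 SE, adjusted p = 0.777). Keratins of wounded epidermis gave 0 calls in edgeR among 17 (9 positive, median 0.07, 0 higher and 1 lower at an unadjusted p of 0.05). Krt6a stood at 194, 138 and 130.4 and 147, 137 and 248 CPM (log2 0.20 ± 0.28 SE, adjusted p = 0.79), and Krt16 at 53.4, 49.7 and 69.9 and 46, 57.4 and 254 CPM (log2 1.04 ± 0.80 SE, adjusted p = 0.627), in both cases with UVB_hCOL3A1 3 alone high.

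Some glial genes fell. Of 18 Schwann cell and nerve genes 1 was positive (median -0.45) and 4 passed as lower. Cadm4, an adhesion molecule of myelinating glia, stood at 11.9, 12.9 and 8.81 CPM in NoUVB and 4.02, 4.2 and 4.4 in UVB_hCOL3A1 (log2 -1.41 ± 0.19 SE, adjusted p = 0.00423). Cdh19, a glial cadherin, went from 8.62, 9.08 and 8.04 to 5.23, 5.6 and 4.83 CPM (log2 -0.71 ± 0.16 SE, adjusted p = 0.0483). Erbb3, the neuregulin receptor, went from 75, 70.3 and 72.7 to 52.7, 54.9 and 48.6 CPM (log2 -0.48 ± 0.09 SE, adjusted p = 0.0238), and it is also expressed by keratinocytes. Groups did not overlap in any of these 3 genes. Without UVB_hCOL3A1 2 the list had 2 calls, and without any other single library 1. Kcna1, a potassium channel of axons, fell from 15.7, 12.5 and 10.2 to 5.61, 4.95 and 6.88 CPM (log2 -1.13 ± 0.20 SE, adjusted p = 0.0142), and Ntng1, a netrin-related axon guidance gene, from 4.94, 3.29 and 5.94 to 1.37, 2.24 and 1.72 CPM (log2 -1.41 ± 0.30 SE, adjusted p = 0.0384).

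Among 11 melanocyte genes 2 were positive (median -0.65) and 1 passed as lower, Oca2, a melanosome transporter, at 4.52, 2.85 and 2.49 and 0.607, 1.31 and 0.43 CPM (log2 -2.02 ± 0.42 SE, adjusted p = 0.0335). The tyrosinase gene Tyr, which is mutated in albino strains, stood at 5.65, 5.43 and 4.12 and 2.58, 3.18 and 1.83 CPM (log2 -0.98 ± 0.26 SE, adjusted p = 0.0805), and the pigment gene Pmel at 19.1, 15.7 and 13.2 and 4.78, 13.9 and 6.55 CPM (log2 -0.92 ± 0.39 SE, adjusted p = 0.332). Tyr did not overlap and missed the threshold, while Pmel overlapped through UVB_hCOL3A1 2. Without that library 3 melanocyte genes passed, and without NoUVB 1, NoUVB 2, UVB_hCOL3A1 1 or UVB_hCOL3A1 3, or with limma voom, there were 0.

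Several single genes outside those groups fell. Adcyap1r1, the receptor PAC1 for the neuropeptide PACAP, stood at 17.2, 16.6 and 15.8 CPM in NoUVB and 6.14, 6.26 and 7.84 in UVB_hCOL3A1 (log2 -1.30 ± 0.15 SE, adjusted p = 0.00192). Igf2, an imprinted growth factor, went from 13.8, 12.6 and 12 to 4.55, 5.23 and 6.23 CPM (log2 -1.27 ± 0.17 SE, adjusted p = 0.00405). These were drops of 2.46-fold and 2.41-fold, and in UVB_Saline they stood at 4.31, 7.07 and 5.09 and 3.49, 5.26 and 6.29 CPM. H19, the imprinted RNA next to Igf2, differed in the other direction without passing, at 15.4, 11.7 and 6.99 and 24.5, 27.3 and 43 CPM (log2 1.49 ± 0.33 SE, adjusted p = 0.0921). Atp13a4, a cation-transporting ATPase gene, went from 5.93, 6.23 and 6.03 to 2.58, 2.06 and 2.15 CPM (log2 -1.41 ± 0.21 SE, adjusted p = 0.00635), while UVB_Saline stood at 7.19, 4.28 and 5.09 CPM, above each treated library. Kcnj16, a potassium channel, and Slc4a8, a bicarbonate transporter, were lower as well (log2 -1.31 ± 0.25 SE, adjusted p = 0.0227, and log2 -1.11 ± 0.22 SE, adjusted p = 0.0300).

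Genes encoded by the mitochondrial genome fell in part, while no nuclear gene of the respiratory chain passed in edgeR. All 11 mitochondrial genes were negative (median -0.75) and 3 passed as lower. mt-Nd1, a subunit of complex I, stood at 2159, 2771 and 2381 CPM in NoUVB and 1202, 1761 and 1277 in UVB_hCOL3A1 (log2 -0.79 ± 0.16 SE, adjusted p = 0.0316). mt-Cytb, of complex III, went from 3751, 5060.2 and 4426 to 2153, 3158 and 2388 CPM (log2 -0.78 ± 0.17 SE, adjusted p = 0.037), and mt-Nd4 from 2824, 3898 and 3195 to 1657, 2381 and 1808 CPM (log2 -0.76 ± 0.17 SE, adjusted p = 0.0409). UVB_hCOL3A1 2 was the highest treated library in all 3, and without it 6 genes passed. Without NoUVB 1 there was 1, and without any other single library or with the non-robust dispersion 0. Of 29 nuclear respiratory chain genes 25 were positive (median 0.17) and 0 passed, with 5 higher at an unadjusted p of 0.05. Mitochondrial RNA is also a sign of RNA quality and took 4.24% to 5.55% of counts outside Rn18s-rs5 in NoUVB and 2.84% to 3.84% in UVB_hCOL3A1. The part of RNA quality in these differences was not tested.

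**Figure D4:**
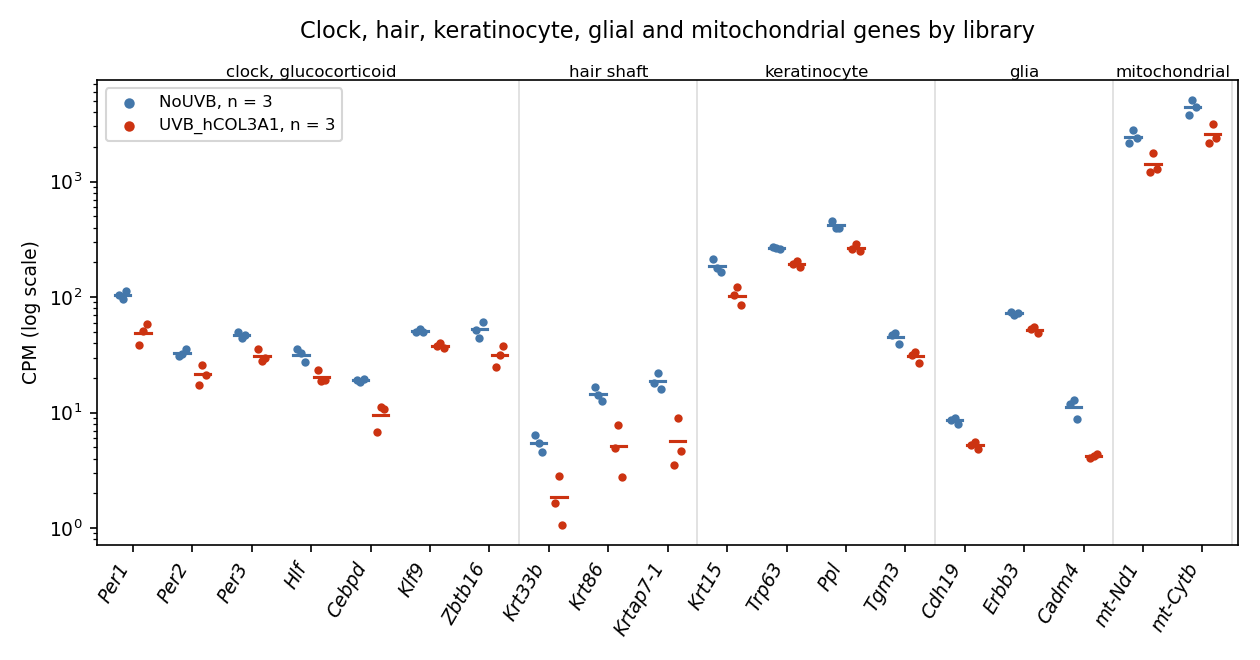
CPM on a log scale for each of the 3 NoUVB (blue) and 3 UVB_hCOL3A1 (red) libraries, with a bar at each group mean, for 19 genes of the clock and steroid response, hair, keratinocytes, glia and mitochondria. Red lies below blue without overlap in each. The log2 differences are largest for the hair genes and Cadm4, and Per2 and Zbtb16 are the genes shown that did not pass.

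Lists tied to direct UVB damage gave no calls in edgeR. Of 34 p53 targets 19 were positive (median 0.05), and Cdkn1a, the cell cycle inhibitor p21, overlapped at 48.9, 50.4 and 53.1 and 50.1, 53.6 and 48.1 CPM (log2 -0.01 ± 0.09 SE, adjusted p = 0.986). Of 26 nucleotide excision repair genes 13 were positive (median -0.0047). Of 33 NRF2 and metallothionein genes 22 were positive (median 0.09), and of 49 cell cycle genes 35 (median 0.12). At an unadjusted p of 0.05 these lists held 3 higher and 3 lower, 0 and 0, 5 and 3, and 3 and 1 in that order, and DESeq2 and limma voom called none of them. When the tissue was taken relative to the last exposure is not stated. Crabp1, a retinoic acid binding protein, was the call among 22 retinoid genes and rose from 2.4, 3.83 and 3.83 to 7.89, 8.78 and 9.88 CPM (log2 1.36 ± 0.21 SE, adjusted p = 0.00772), and in UVB_Saline it stood at 6.77, 10.4 and 8.24 CPM. In the sebaceous and lipid list 2 of 33 passed as higher, Plin2, which coats lipid droplets (log2 0.92 ± 0.12 SE, adjusted p = 0.00353), and Cidea, which fuses them (log2 0.96 ± 0.19 SE, adjusted p = 0.0274). Without NoUVB 3 that list had 4 calls, and without NoUVB 1, NoUVB 2, UVB_hCOL3A1 2 or UVB_hCOL3A1 3 it had 1.

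The difference between the irradiated groups bears on which of these changes went with hCOL3A1 and not with UVB and saline. In the fit of 9 libraries 0 of 17168 genes passed between UVB_hCOL3A1 and UVB_Saline in edgeR (0%), with 1025 higher and 913 lower at an unadjusted p of 0.05. DESeq2 called 125 and 48 there, limma voom 0 and 0, and edgeR without UVB_Saline 3 called 71 and 7. A p that misses the threshold does not show equal levels. Both irradiated groups were set against the same NoUVB libraries, so their differences from NoUVB are given side by side without a measure of likeness. For Irf7 the log2 difference from NoUVB was 2.99 ± 0.33 SE in UVB_hCOL3A1 and 1.56 ± 0.33 SE in UVB_Saline, and between the irradiated groups 1.43 ± 0.30 SE (adjusted p = 0.206). For Itgam the values were 1.72 ± 0.27 SE and 0.62 ± 0.27 SE from NoUVB, and 1.1 ± 0.26 SE (adjusted p = 0.222) between them. For Saa3 they were 4.67 ± 0.97 SE and 1.08 ± 1.19 SE, and 3.58 ± 0.86 SE (adjusted p = 0.247) between them. Cfb stood at 1.58 ± 0.40 SE and -0.04 ± 0.40 SE, and 1.62 ± 0.40 SE (adjusted p = 0.247) between them. Over whole lists the median difference between the irradiated groups was 0.03 for the interferon response (23 of 43 positive), -0.51 for GTPases and class I presentation (7 of 34), 0.59 for macrophage markers (22 of 26) and 0.56 for complement (19 of 21), against -0.02 over all genes. Other lists differed too, with 1.03 for skeletal muscle (23 of 24), 0.84 for adipocytes (15 of 15), 0.47 for matricellular genes (23 of 26) and 0.37 for fibroblasts (19 of 21). In the other direction stood stress keratins at -0.76 (1 of 17) and differentiation genes at -0.31 (2 of 43). The part of tissue content in these differences was not tested.

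Clock, growth factor and matrix genes were compared in the same way. Per1 differed from NoUVB by -1.08 ± 0.17 SE in UVB_hCOL3A1 and -0.99 ± 0.17 SE in UVB_Saline, and by -0.09 ± 0.17 SE (adjusted p = 0.885) between them. Igf2 showed -1.27 ± 0.21 SE and -1.36 ± 0.21 SE, and 0.09 ± 0.22 SE (adjusted p = 0.918) between them. Eln showed 0.91 ± 0.21 SE and 0.77 ± 0.21 SE, and 0.13 ± 0.20 SE (adjusted p = 0.858) between them. Zbtb16 showed -0.75 ± 0.16 SE and -1.70 ± 0.17 SE, and 0.95 ± 0.17 SE (adjusted p = 0.166) between them. Col3a1 showed 0.57 ± 0.11 SE and 0.15 ± 0.11 SE, and 0.42 ± 0.11 SE (adjusted p = 0.247) between them.

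**Figure D5:**
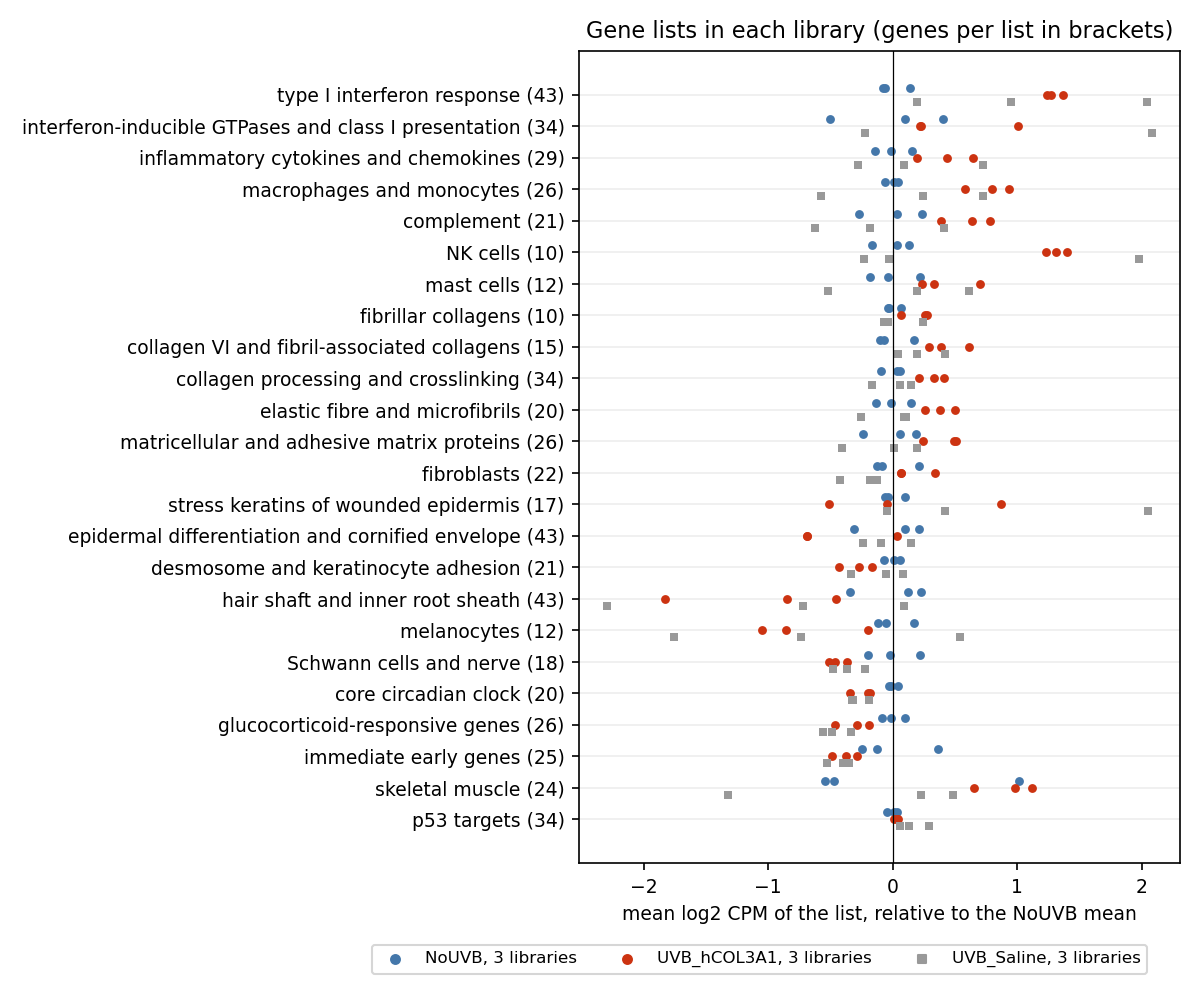
Mean log2 CPM of 24 gene lists in each of 9 libraries, relative to the NoUVB mean and scaled over 9 libraries, with NoUVB in blue, UVB_hCOL3A1 in red and UVB_Saline as grey squares. The red points of the interferon list lie at 1.24 to 1.37 and those of the hair list at -1.83 to -0.46, while the grey points reach from 0.19 to 2.05 and from -2.30 to 0.09.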

How the data were processed

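RNA from the skin libraries was sequenced as 150 bp read pairs on an Illumina platform, per the labels' protocols. The deposited table holds estimated counts per gene that need not be whole, and per the submitters' processing notes the tools included RSEM 1.3.3 and STAR 2.7.11b with the build GRCm39, besides fastp 0.23.4, DESeq2 1.44.0 and Bowtie2 2.5.4. Strand and multi-mapping settings were not found in the sources used here. Here the counts were rounded and tested with edgeR 4.0.16 (filterByExpr, TMM factors, robust quasi-likelihood fit, two-sided), with Benjamini-Hochberg adjustment over all genes tested and a threshold of 0.05. The 525 of 57180 entries without a symbol held 0.0384% of counts and were tested but not named. A gene low in NoUVB could pass filterByExpr through its UVB_hCOL3A1 libraries alone. The comparison was fitted on its 6 libraries, with 4 residual degrees of freedom, and the contrast between irradiated groups on all 9. SE is the log2 difference over the square root of F. Group means and SDs are replaced by each library's CPM, which uses TMM-scaled library sizes. Genes at 0 in a group were set to 3 counts over that group for a lower bound. Named genes were up to 15 called per direction with the largest change among genes whose groups did not overlap and whose average log2 CPM was 1 or more, 29 genes named whatever their values, and up to 4 members of each list with the smallest p. Members of lists named beyond these were chosen after their values were seen. Some genes that this rule names are not reported here. The comparison, the gene lists and the naming rule were chosen with earlier results of these data known. All libraries carry the same batch label. DESeq2 1.42.0, limma 3.58.1 voom, other scalings, other filters, a replicate block and single libraries left out were tried as alternatives, and the edgeR script was tested on simulated data.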

Additional observations from a re-analysis of the deposited data

How the results depend on the processing

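Against NoUVB the main counts were 283 genes higher and 124 lower. Library size alone gave 91 and 38, no filter on low counts 831 and 509, and all 9 libraries in 1 fit 7 and 0. With UVB_Saline 3 left out of that fit, an alternative chosen after seeing the data, they were 180 and 62. Limma voom called 80 lower and the non-robust dispersion 79. Leaving out single libraries gave 178 to 255 higher and 33 to 121 lower. With the replicate number as a block there were 612 higher and 411 lower. Same-numbered libraries correlated at 0.0236, 0.199 and 0.116 in their deviations. NoUVB 1 alone correlated slightly better with another number, at 0.026 with UVB_hCOL3A1 3. The labels give equal numbers no meaning, and so few pairs cannot decide whether they share an animal or day. Between the irradiated groups, where the main counts were 0 and 0, DESeq2 gave 125 and 48, the block 60 and 14, and single libraries left out 0 to 71 higher and 0 to 7 lower. Over 140 named genes and 17 alternatives there were 2378 values, of which 1818 kept direction and side of the threshold, 508 lost the call and 33 gained it. The other 19 changed sign, in genes that did not pass. Leaving out single libraries gave log2 differences of Cdkn1a -0.049 to 0.031, Il1b -0.47 to 0.88, Krt10 -0.033 to 0.43, Krt14 -0.076 to 0.28, Krt16 -0.16 to 1.439, Krt6a -0.11 to 0.40, Mki67 -0.12 to 0.063, Mmp13 -0.20 to 0.66, Mmp3 -0.011 to 0.14 and Mmp9 -0.094 to 0.26. Cdkn1a was 0.0019 with DESeq2, Cdkn1a was 0.0041 with no filter, Cdkn1a was 0.0078 in the fit of 8 libraries, Mmp3 was -0.045 with library size alone and Mmp9 was -0.025 with library size alone. The cause of these shifts was not tested.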

Other observations

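Commd1b, a copy of the copper metabolism gene Commd1, was singled out after its values were seen and falls under the level set for naming. It had 0 counts in the 3 NoUVB libraries and 98 counts over the UVB_hCOL3A1 libraries, which stood at 2.5, 2.99 and 3.55 CPM. With the NoUVB group set to 3 counts this was at least 28.9-fold higher (edgeR, adjusted p = 0.00192). Commd1b passed the count filter only through the UVB_hCOL3A1 libraries. UVB_Saline stood at 0, 0.247 and 0 CPM. Commd1 itself stood at 8.19, 7.74 and 8.81 CPM in NoUVB and 9.18, 7.29 and 9.67 CPM in UVB_hCOL3A1 (log2 0.08 ± 0.17 SE, adjusted p = 0.876). Reads of the 2 copies may be shared by the estimation, and genetic background was not tested.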
